A study of Mus musculus with 6 samples.

Results

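B cell receptor signalling was followed here through 38 genes, from the signalling chains of the receptor to the transcription factors and inhibitors at the end of its relay. The genes are a list by name whose rule uses no measured value, and a probe set was taken for a gene where that gene was its only symbol. This gave 96 probe sets for 37 of the 38 genes, out of 18193 genes with such a probe set in the whole table. Mapk3 had none and is not analysed here. All 37 genes passed the filter on dim signal through the probe set with the highest mean, which stood for the gene, and 84 of the 96 probe sets passed.

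The arrays compared bone marrow cells of C57BL/6 mice lacking both cryptochromes (Cry 1/2 double KO, arrays DKO 1 to DKO 3) with cells of wild-type C57BL/6 mice (arrays WT 1 to WT 3). Cells of both genotypes had been cultured in medium with 20% fetal bovine serum and interleukin-7 at 10 ng/ml, a cytokine that sustains early B lymphocytes. The single comparison, double knockout against wild type, asks what loss of the cryptochromes, repressors of the circadian clock, changes in these cells. The labels give no age or sex, no time in culture, and no word on whether arrays of 1 group came from separate mice, so any p here reflects no more than the scatter among these 6 arrays, which may be technical.

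The B cell receptor is a membrane immunoglobulin that signals through CD79A and CD79B, whose tails are phosphorylated by SRC-family kinases and then hold the kinase SYK. SYK and BTK, assembled on the adaptor BLNK, activate phospholipase C gamma 2, which drives calcium release and NFAT, protein kinase C beta and NF-kB, and RAS and ERK signalling. Pre-B cells use the same relay below their pre-B cell receptor, before a light chain is made. Phosphatases and ubiquitin ligases limit the signal.

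WT 2 stood apart from the other arrays in measures that use no group. The ratio of 3′ to 5′ signal of its Actb control probe sets was 824, against 1.47 to 2.05 on the others, and its median signal was 115 against 44.0 to 55.3. Values are therefore given without WT 2, and with all 6 arrays as well for the members described in full. The targeted genes were examined first. Cry1 read 359, 399 and 545 across DKO 1 to 3, against 1533, 1502 and 955 across WT 1 to 3, every knockout array below every wild-type array. Its log2 difference was -1.26 with all 6 arrays (limma adjusted p = 0.822) and -1.48 without WT 2 (limma adjusted p = 0.815). Cry2 read 162, 178 and 133 across DKO 1 to 3, against 145, 102 and 105 across WT 1 to 3, every knockout array above every wild-type array once centred. Its log2 difference was 0.70 with all 6 arrays and 0.29 without WT 2. Whether these probe sets lie in the deleted parts was not analysed here, so they do not test the labels. The 11 tested markers of early B cells differed widely in signal. Igll1, a surrogate light chain gene and with Cd24a the brightest of them, read 28090, 28005 and 14442 across DKO 1 to 3, against 18838, 58291 and 15222 across WT 1 to 3, while Pax5 read 148 to 340 over the 6 arrays, Rag2 185 to 603 and Dntt 495 to 10162.

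Because cryptochromes repress transcription at E-boxes bound by CLOCK and BMAL1, the start regions of the members were searched for the canonical E-box CACGTG, which reads the same on both strands. The windows ran from 250 bases before to 50 bases after a gene's start in RefSeq (GRCm38.p6), and 31 of the 38 members had at least 1. The element was found for 4 of these 31 genes (12.9%), against 8.09% of all 27025 genes with such a window, and in 9.09% of the members' 44 windows against 7.15% of all 32851. A match describes these letters only and is no evidence of binding. The 4 windows are shown, 5′ to 3′ on the strand of the gene with the E-box in capitals, because they are where a direct action of the clock would be looked for among these genes.

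Nras, chr3:103058035-103058334, plus strand: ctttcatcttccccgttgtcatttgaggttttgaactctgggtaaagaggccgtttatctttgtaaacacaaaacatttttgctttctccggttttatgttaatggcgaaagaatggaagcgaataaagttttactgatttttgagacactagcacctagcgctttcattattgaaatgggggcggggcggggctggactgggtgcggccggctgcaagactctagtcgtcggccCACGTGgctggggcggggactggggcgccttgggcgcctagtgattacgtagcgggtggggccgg
Nfatc3, chr8:106059340-106059639, plus strand: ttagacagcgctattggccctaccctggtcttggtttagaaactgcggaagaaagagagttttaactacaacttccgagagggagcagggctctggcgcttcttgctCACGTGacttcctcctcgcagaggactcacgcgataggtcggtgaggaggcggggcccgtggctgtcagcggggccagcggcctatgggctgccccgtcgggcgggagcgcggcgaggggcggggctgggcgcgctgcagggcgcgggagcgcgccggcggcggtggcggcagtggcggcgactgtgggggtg
Plcg2, chr8:117498025-117498324, plus strand: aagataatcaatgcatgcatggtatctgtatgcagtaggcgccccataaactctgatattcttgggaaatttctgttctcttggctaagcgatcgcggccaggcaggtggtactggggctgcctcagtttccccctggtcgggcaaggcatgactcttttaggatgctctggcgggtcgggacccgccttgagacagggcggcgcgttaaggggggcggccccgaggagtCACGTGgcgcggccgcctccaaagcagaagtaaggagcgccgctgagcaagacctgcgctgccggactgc
Pik3ap1, chr19:41385053-41385352, minus strand: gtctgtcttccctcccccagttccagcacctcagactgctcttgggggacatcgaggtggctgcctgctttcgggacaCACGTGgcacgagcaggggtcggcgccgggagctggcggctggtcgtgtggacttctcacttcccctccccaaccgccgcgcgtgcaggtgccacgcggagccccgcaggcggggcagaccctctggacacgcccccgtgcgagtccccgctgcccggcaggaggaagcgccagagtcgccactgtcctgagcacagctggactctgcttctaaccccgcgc

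The E-box began 15 bases before the annotated start in Nras, 20 in Plcg2, 143 in Nfatc3 and 172 in Pik3ap1. None of these 4 genes passed the test. Without WT 2 the log2 differences were -0.39 for Nras, -0.088 for Plcg2, 0.19 for Nfatc3 and 0.27 for Pik3ap1, on both sides of 0. Other tested probe sets gave -0.45 and -0.31 for Nras, -0.34 for Nfatc3 and 0.73 for Pik3ap1. The probe sets of Nfatc3 thus had opposite signs.

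No B cell receptor signalling gene passed the test between the genotypes. With all 6 arrays limma called 0 of the 37 genes at an adjusted p of 0.05, where it called 2 of 27022 probe sets (0.00740%), and without WT 2 it called 0 of 37, where it called 7 probe sets (0.0259%). At an unadjusted p under 0.05 there was 1 member, Blnk, in each fit, against 3.27% of the 12627 genes tested with all arrays and 4.21% without WT 2. The genotypes did not overlap in 1 member with all arrays, Akt1, with every DKO array above every WT array, as in 8.53% of genes, and in 0 members with every DKO array below, as in 2.06%. Without WT 2 Akt1 lay above and Blk below, 1 member each way, where 12.0% and 5.56% of genes did. These shares of members are at or below those of all genes.

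The side on which most members lay depended on WT 2. With all 6 arrays 30 of 37 members averaged higher in DKO (median log2 difference 0.62), as did 70.2% of all genes (median 0.30). Without WT 2 the count was 15 of 37 and the median -0.06, where 51.7% of all genes were higher and their median was 0.01. The sign turned for 17 members. WT 2 gave the lowest value of the 6 arrays in 29 of 37 members (58.4% of all genes) and the highest in 1, Pik3cd. The median standard error of the members was 0.65 with WT 2 and 0.25 without it. With quantile normalization of all arrays 24 members were higher, with a median of 0.25, where 50.9% of all genes were higher and their median was 0.011.

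**Figure D1:**
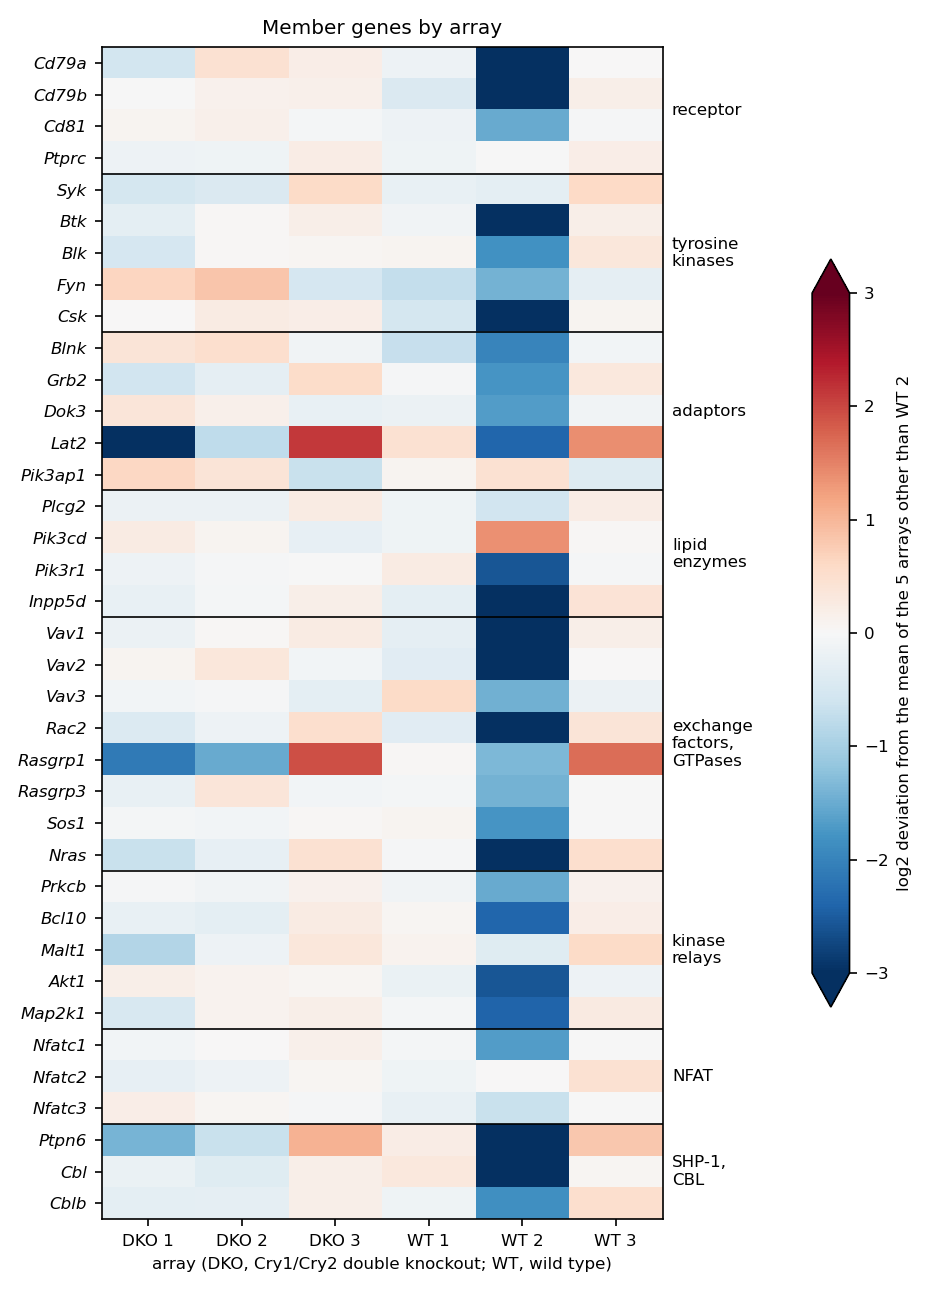
Deviation of each member gene on each array from its mean over the 5 arrays other than WT 2, on the log2 scale of centred values, in order of role; the colour scale stops at -3 and 3. WT 2 has a median deviation of -1.81, and the strongest colours on the other arrays are in Lat2, Rasgrp1 and Ptpn6.

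**Figure D2:**
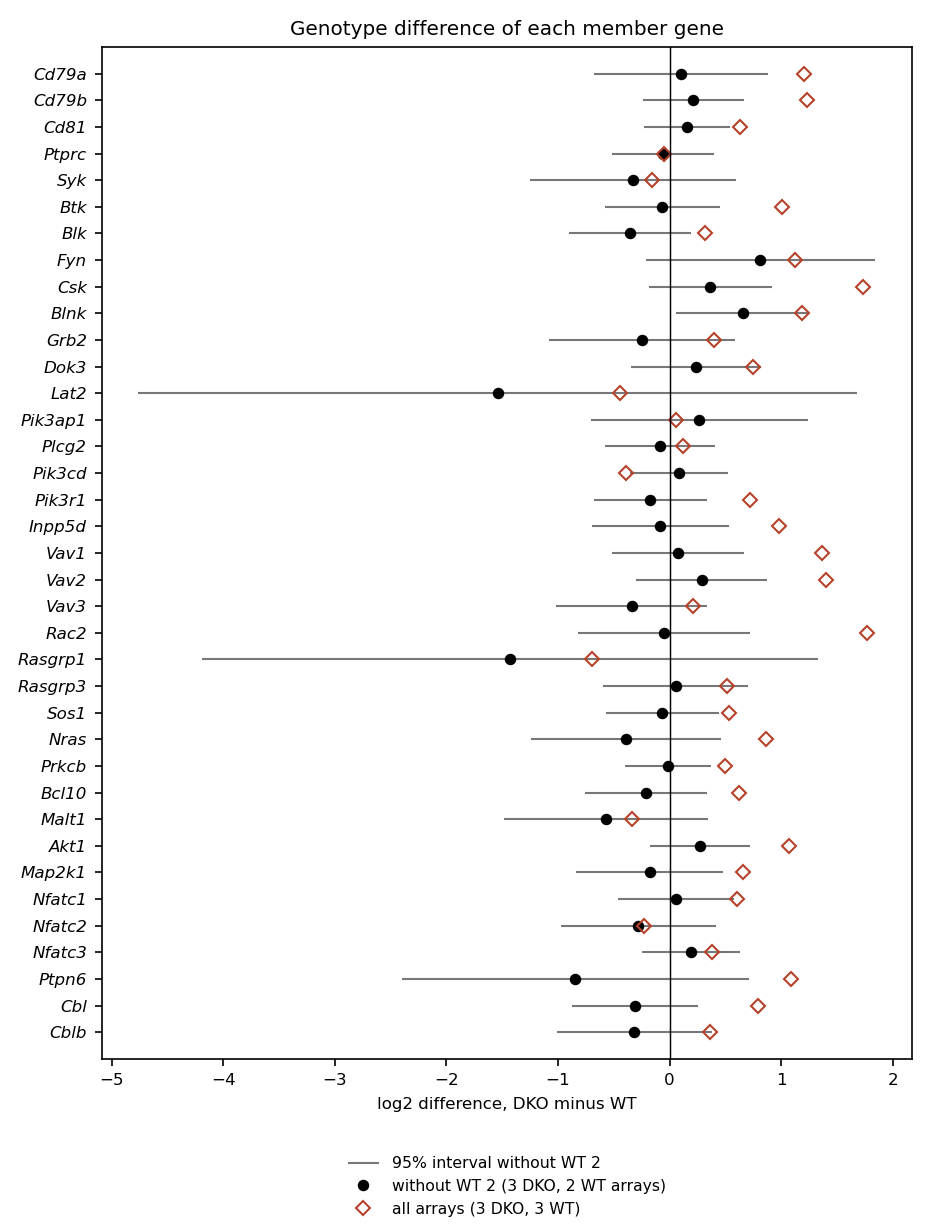
Log2 difference of DKO minus WT for each member gene with all 6 arrays (open diamonds) and without WT 2 (filled circles, with the 95% interval of the limma fit). Most diamonds lie to the right of 0, while 15 circles lie above 0 and 22 below it.

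The intervals without WT 2 rest on 3 DKO and 2 WT arrays and are not adjusted for the number of probe sets. They reflect the scatter among these arrays, which may be technical, so they set no limit on the difference between the genotypes. For 25 of 37 members the 95% interval of the log2 difference lay within -1 and 1, that is, within a 2-fold change either way, as it did for 59.2% of all genes, and with all arrays it did for 3 members and 14.9% of all genes. These counts rest on 1 probe set per gene, and the interval lay within -1 and 1 in every tested probe set of a gene for 17 members without WT 2. The estimate was under 0.5 in size in 31 members, and 82.2% of all genes were as close. It was over 1 in size in 2 members, Lat2 and Rasgrp1 (4.65% of all genes), both with wide intervals.

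By the probe sets that stood for the genes, the log2 differences of the receptor chains and co-receptor proteins ran from -0.062 to 0.21 without WT 2. Cd79a, which encodes Ig-alpha, read 878, 1739 and 1242 across DKO 1 to 3, against 1142, 214 and 1133 across WT 1 to 3. Apart from WT 2, DKO 1 was the lowest array and DKO 2 the highest, so the groups overlapped. Cd79a differed by 1.21 on the log2 scale (standard error 0.93, limma adjusted p = 0.822) and 0.10 without WT 2, with an interval of -0.67 to 0.88. Cd79b, which encodes Ig-beta, read 20492, 22356 and 19294 across DKO 1 to 3, against 15256, 4212 and 20321 across WT 1 to 3. WT 1 and WT 3 lay on either side of DKO 3. The centred log2 means were 14.49 ± 0.09 (SD, n = 3) for the knockouts against 13.26 ± 1.79 (SD, n = 3) for the wild types, which differed by 1.23 (standard error 0.80), and by 0.21 (-0.24 to 0.67) without WT 2. Cd81, which encodes a tetraspanin, differed by 0.63 and 0.16 without WT 2. Ptprc, the phosphatase CD45 that primes SRC-family kinases, read 8372, 8290 and 9152 across DKO 1 to 3, against 8395, 17148 and 9356 across WT 1 to 3, a difference of -0.049 (-0.062 without WT 2). The raw signal of WT 2 was the highest in Ptprc, but once centred it lay between the other arrays. A second tested Ptprc probe set gave -1.10 with all arrays (limma adjusted p = 0.822) and -0.77 without WT 2.

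Among the tyrosine kinases Fyn had the largest difference without WT 2. This SRC-family kinase read 1187, 1322 and 435 across DKO 1 to 3, against 444, 513 and 538 across WT 1 to 3. DKO 1 and DKO 2 were high, and DKO 3 had the lowest signal, though WT 1 and WT 2 were lower once centred. Fyn differed by 1.12 (standard error 0.54, limma adjusted p = 0.822), and 0.81 without WT 2 (limma adjusted p = 0.948), with an interval of -0.21 to 1.84. A second tested Fyn probe set read 0.56 and 0.40 in the same fits. Syk, the kinase that docks on the phosphorylated receptor chains, read 5381, 5684 and 9753 across DKO 1 to 3, against 6619, 11691 and 10334 across WT 1 to 3. DKO 1 and DKO 2 were the lowest here, and DKO 3 lay next to WT 3, with a difference of -0.16 with all arrays and -0.32 (-1.25 to 0.60) without WT 2. Other tested Syk probe sets gave -1.18 to 0.43 with all arrays and -1.28 to -0.017 without WT 2. Btk, whose loss blocks B cell development in patients with X-linked agammaglobulinaemia, read 2822, 3424 and 3271 across DKO 1 to 3, against 3149, 687 and 3385 across WT 1 to 3. Its 5 values other than WT 2 lay close together, and the difference went from 1.01 to -0.064 (-0.58 to 0.45) when WT 2 was left out. Blk, a SRC-family kinase of B cells, read 3940, 5603 and 4900 across DKO 1 to 3, against 5839, 2942 and 6217 across WT 1 to 3. All DKO arrays were below WT 1 and WT 3 and above WT 2, with a difference of 0.32 with all arrays and -0.36 without WT 2 (limma adjusted p = 0.948). Csk, which phosphorylates and shuts SRC-family kinases, differed by 1.73 and by 0.37 (-0.19 to 0.92) without WT 2, and its signal was 362 on WT 2 against 2774 to 4735 on the other arrays.

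**Figure D3:**
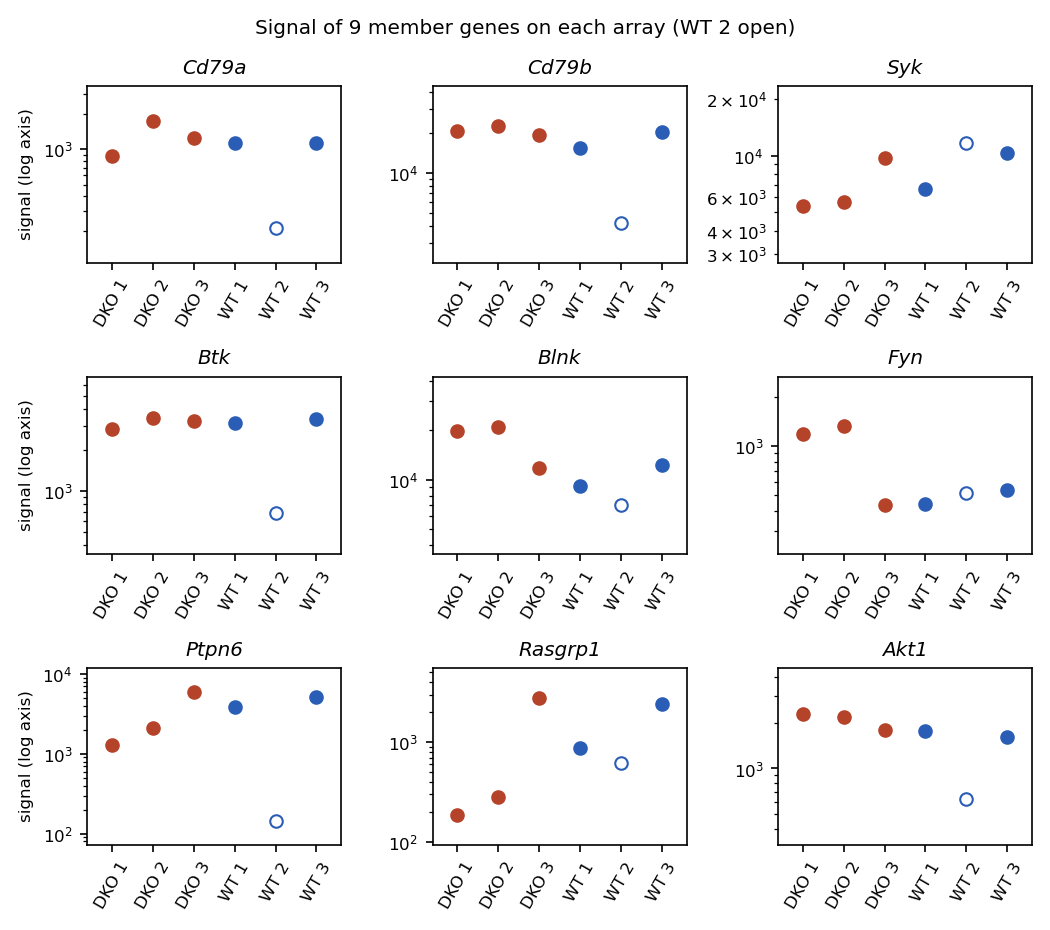
Signal of 9 member genes on each array, on a log axis in arbitrary units of the deposited table; DKO arrays in red, WT arrays in blue, WT 2 as an open circle. Fyn and Blnk are high on DKO 1 and DKO 2 only, Ptpn6 and Rasgrp1 are lower on these arrays than on DKO 3, WT 1 and WT 3, and Cd79a, Cd79b, Btk and Akt1 are set apart mainly by WT 2.

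Blnk, an adaptor gene, had the smallest p in both fits among the probe sets that stood for the members, and passed the adjusted threshold in neither. Of all 84 tested probe sets of the members 0 were called by limma in either fit. It called 0.00740% of all tested probe sets with all arrays and 0.0259% without WT 2. At an unadjusted p under 0.05 there were 2 of the 84 with all arrays and 3 without WT 2. By 1 probe set per gene, 3.27% and 4.21% of all genes had such a p in these fits. Other probe sets with a smaller p than Blnk were 1 of Ptprc with all arrays, and 1 of Cbl and 1 of Pik3cd without WT 2. BLNK is the scaffold on which SYK and BTK reach phospholipase C gamma 2. Its gene read 19885, 21100 and 11875 across DKO 1 to 3, against 9238, 7084 and 12405 across WT 1 to 3. DKO 1 and DKO 2 were above every WT array, while DKO 3 lay just below WT 3. The centred log2 means were 14.22 ± 0.32 (SD, n = 3) for the knockouts against 13.03 ± 0.96 (SD, n = 3) for the wild types. They differed by 1.18 (standard error 0.49, limma adjusted p = 0.822) and 0.66 without WT 2 (limma adjusted p = 0.948), with an interval of 0.06 to 1.25. With array weights, which set WT 2 at 0.0623, DKO 3 at 0.535 and DKO 2 at 4.39, Blnk (0.97, limma adjusted p = 0.0401) and Fyn (1.28, limma adjusted p = 0.0483) were called, among 922 probe sets (3.41% of those tested). DKO 3, which had a low weight in that fit, is the knockout array on which both genes lay with the wild types. Lat2, the adaptor NTAL, read 4.83, 96.6 and 699 across DKO 1 to 3, against 247, 53.0 and 426 across WT 1 to 3. Apart from WT 2 it varied more than any other member, from far below the array median on DKO 1 to its highest value on DKO 3. Its difference of -1.54 without WT 2 had an interval of -4.76 to 1.68. Its other tested probe set read 0.53, and 0.09 without WT 2. Grb2, which links receptors to SOS, Dok3, an inhibitory adaptor, and Pik3ap1, the adaptor BCAP that recruits PI3-kinase, differed by -0.25, 0.24 and 0.27 without WT 2. A second tested probe set gave -0.21 for Grb2 and 0.73 for Pik3ap1 in that fit.

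By the probe sets that stood for the genes, the lipid enzymes differed by -0.17 to 0.087 without WT 2. Plcg2, the phospholipase at the centre of the relay, read 6341, 6280 and 7162 across DKO 1 to 3, against 6517, 8917 and 7327 across WT 1 to 3. The groups overlapped, and the difference was 0.12 and -0.088 (-0.58 to 0.40) without WT 2. Pik3cd, the p110 delta catalytic subunit of PI3-kinase, read 13955, 12259 and 8358 across DKO 1 to 3, against 10500, 55721 and 10453 across WT 1 to 3. WT 2 was several times above the rest here, the reverse of most members. Without WT 2 the difference was 0.087, and its other 4 tested probe sets gave -1.05 to -0.45. Pik3r1, the regulatory subunit of PI3-kinase, and Inpp5d, the inositol phosphatase SHIP-1 that opposes it, differed by -0.17 and -0.081 without WT 2. Other tested probe sets gave -1.07 to 0.41 for Pik3r1 and -0.14 for Inpp5d in that fit.

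Exchange factors and GTPases shared 1 gene with a wide range, Rasgrp1. RASGRP1 activates RAS in response to diacylglycerol. Its gene read 186, 282 and 2774 across DKO 1 to 3, against 873, 614 and 2405 across WT 1 to 3. DKO 1 and DKO 2 were the lowest arrays and DKO 3 the highest. A difference of -0.69 (standard error 1.20, limma adjusted p = 0.863) became -1.43 without WT 2, with an interval of -4.19 to 1.33. Its other 3 probe sets read -0.58 to 0.25 with all arrays and -0.36 to 0.09 without WT 2. Rasgrp3, a second member of that family in B cells, differed by 0.52 with all arrays and 0.054 without WT 2. A second tested Rasgrp3 probe set had the opposite sign, -0.69 with all arrays and -0.47 without WT 2. Vav1, Vav2 and Vav3, exchange factors for RAC, differed by 1.37, 1.41 and 0.21 with all arrays and by 0.078, 0.29 and -0.34 without WT 2. Other tested probe sets gave 0.14 for Vav1 and -0.53 and -0.0096 for Vav3 without WT 2. Rac2, the RAC of blood cells, had the largest difference of all members with 6 arrays (1.77, standard error 1.41). It read 5250, 6213 and 8326 across DKO 1 to 3, against 5484, 286 and 7955 across WT 1 to 3. WT 2 alone was low on this probe set, and without it the difference was -0.046 (-0.82 to 0.73). A second tested Rac2 probe set gave 0.17 with all arrays and -0.017 without WT 2, and its highest signal was on WT 2 (325). Sos1 and Nras, an exchange factor and a RAS protein, differed by -0.065 and -0.39 without WT 2. Other tested probe sets gave 0.56 and 0.42 for Sos1 and -0.45 and -0.31 for Nras in that fit.

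Below these, the kinase relays to NF-kB, AKT and ERK held the sole member whose genotypes did not overlap with all arrays. Akt1, the kinase downstream of PI3-kinase, read 2295, 2169 and 1780 across DKO 1 to 3, against 1766, 626 and 1607 across WT 1 to 3. DKO 3 and WT 1 were nearly equal in signal, and on the centred scale DKO 3, at 11.12, was the lowest knockout array above WT 3, at 10.93, the highest wild-type array. Akt1 differed by 1.08 (standard error 0.70, limma adjusted p = 0.822) and 0.28 without WT 2 (-0.17 to 0.73). Other tested Akt1 probe sets read 0.08 and 0.84, and 0.17 and -0.12 without WT 2. Prkcb, the protein kinase C that starts the path to NF-kB, read 8844, 8211 and 8245 across DKO 1 to 3, against 8230, 5795 and 8577 across WT 1 to 3. It had 1 of the narrowest intervals, -0.40 to 0.37 about -0.013 without WT 2. Bcl10 and Malt1, partners in the complex that relays that signal, differed by -0.21 and -0.57, and Map2k1, the ERK kinase MEK1, by -0.18. The NFAT factors, which calcium sends to the nucleus, differed by 0.058 for Nfatc1, -0.28 for Nfatc2 and 0.19 for Nfatc3 without WT 2. Nfatc2 was the dimmest member, at percentile 58.7 of all probe sets by mean signal, while the median member was at percentile 89.7.

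The phosphatase and ubiquitin ligases that limit the signal had lower means in DKO without WT 2 and higher ones with it. Ptpn6, the phosphatase SHP-1, read 1294, 2077 and 5940 across DKO 1 to 3, against 3886, 144 and 5177 across WT 1 to 3. DKO 1 and DKO 2 were below WT 1 and WT 3, and DKO 3 was the highest of all. It differed by 1.09 (standard error 1.59, limma adjusted p = 0.840) and -0.85 without WT 2 (-2.40 to 0.71). A second Ptpn6 probe set read 4080 on WT 2, the highest of its 6 values, and gave -0.51 and -0.43. Cbl and Cblb, ligases that mark active kinases for turnover, differed by 0.79 and 0.37 with all arrays and by -0.31 and -0.31 without WT 2. Other tested Cbl probe sets gave -0.72 and 0.042 with all arrays, and -1.08 (standard error 0.37, limma adjusted p = 0.948) and 0.13 without WT 2.

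Probe sets of 1 gene disagreed on WT 2 more than on the other wild type arrays. For the 26 members with more than 1 tested probe set, the deviation of each probe set on an array from the mean of the other arrays was taken, with WT 2 kept out of that mean, and the range of these deviations within a gene had a median of 2.28 on WT 2, 0.34 on WT 1 and 0.39 on WT 3 (log2). Pik3cd was the extreme case, with a range of 7.63 over 5 probe sets, whose signal on WT 2 ran from 8.07 to 55721. In 11 of the 26 genes tested probe sets lay on opposite sides of 0 with all arrays, and in 11 without WT 2. A level in WT 2 thus depended on which probe set stood for the gene.

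**Figure D4:**
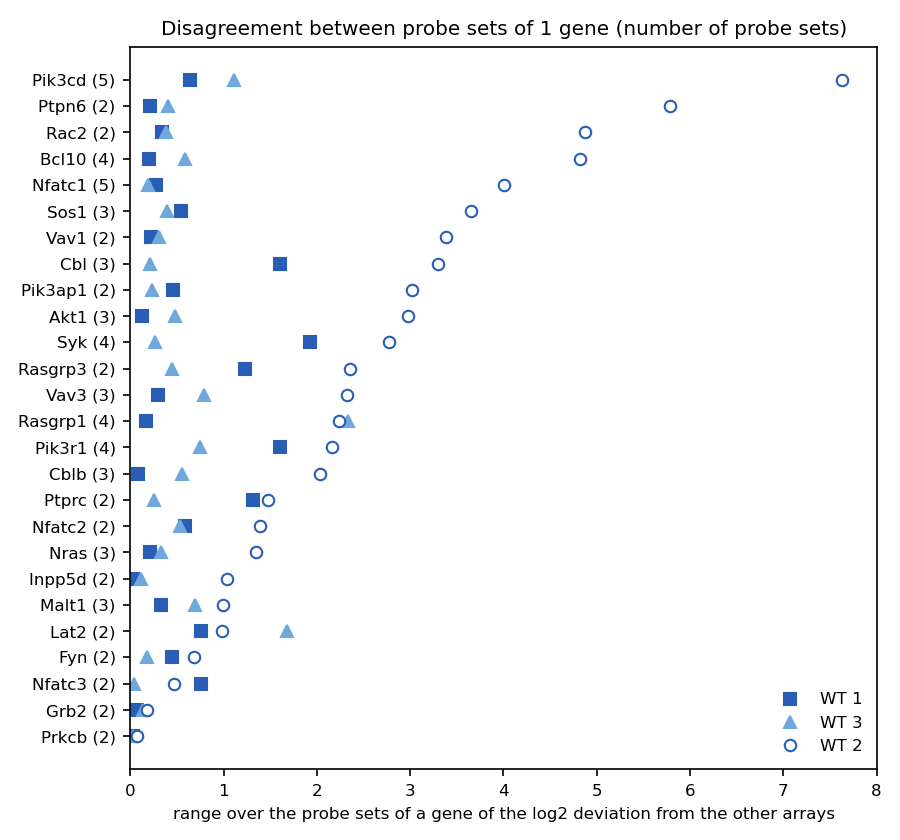
For the 26 member genes with more than 1 tested probe set (number in brackets), the range over these probe sets of the log2 deviation of WT 1, WT 2 or WT 3 from the mean of the other arrays, WT 2 kept out of that mean. WT 2 (open circles) reaches 7.63 in Pik3cd, and most values of WT 1 and WT 3 are under 1.

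DKO 3 was nearer to the wild type arrays than to the other knockout arrays in most members. Its value was closer to the mean of WT 1 and WT 3 than to the mean of DKO 1 and DKO 2 in 31 of 37 members, and in 71.0% of all genes. The exceptions were Cd79a, Cd79b, Csk, Pik3r1, Vav3 and Akt1. Over all probe sets other than controls the most alike arrays were DKO 3 and WT 3, with a correlation of 0.982 of log2 values. For DKO 1 and DKO 2 it was 0.977. The cause of the likeness of DKO 3 and WT 3 was not tested. The range over the 5 arrays other than WT 2 was over 1 (log2) in 11 members (30.2% of all genes), with Lat2, Rasgrp1, Ptpn6, Fyn and Malt1 the widest, and the median range was 0.70 in members and 0.73 in all genes.

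Markers of other cell types and of B cell stage moved with the same arrays. All 13 tested granulocyte markers had lower means in DKO, with a summed signal of 666 to 27981 on the DKO arrays and 19369 to 179267 on the WT arrays, and without WT 2 their median deviations on DKO 1 to 3 were -2.48, -1.79 and 1.90. The signal of S100a8 was 190, 186 and 10377 across DKO 1 to 3, against 24760, 94059 and 8306 across WT 1 to 3, and that of S100a9 was 130, 123 and 7817 across DKO 1 to 3, against 23808, 69958 and 5600 across WT 1 to 3. Of 17 macrophage and monocyte markers 15 were lower with all arrays, with sums of 19490 to 35508 and 23791 to 116922, and both Lyz2 (6642 to 20554) and Ctss (7876 to 50282) read high throughout. Of 7 mature B cell markers 4 were lower with all arrays, with median deviations of -1.34, -0.93 and 1.08 for DKO 1 to 3, then 0.072 for WT 1 and 1.07 for WT 3, and Cd22 read 923, 1394 and 5926 across DKO 1 to 3, against 6079, 11739 and 6089 across WT 1 to 3. The 2 tested Cd22 probe sets differed by -1.62 and 0.77 with all arrays, and by -1.63 and -1.13 without WT 2. The median of the 11 pro-B and pre-B cell markers stayed within -0.18 and 0.11 on these arrays, and that of the members within -0.18 and 0.18. Single early B cell markers lay far to both sides of that median. Dntt, which adds bases at V(D)J joints, read 10162, 10083 and 1079 across DKO 1 to 3, against 1314, 3466 and 495 across WT 1 to 3. With WT 2 left out it differed by 2.53 (limma adjusted p = 0.948). The recombinase genes Rag1 and Rag2 differed by -1.05 and -1.08 without WT 2 (limma adjusted p = 0.948 for each), and 3 of the 11 markers had an unadjusted p under 0.05 in that fit. Several members, among them Syk, Btk, Ptpn6, Plcg2 and Lat2, are also expressed in myeloid cells. In RNA of whole cultures fewer cells of a type and less RNA per cell cannot be told apart, and the part of these markers in the values of Fyn, Blnk, Ptpn6, Rasgrp1 and Lat2 was not tested.

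The other markers were as follows. T and NK cell markers had 8 of 11 higher in DKO, with sums of 1210 to 6424 on DKO and 1267 to 3338 on WT arrays, and their brightest genes lay on opposite sides. Lat, an adaptor gene, read 5235, 4020 and 183 across DKO 1 to 3, against 593, 347 and 183 across WT 1 to 3, while the kinase gene Zap70 read 233, 354 and 612 across DKO 1 to 3, against 603, 1861 and 702 across WT 1 to 3. The CD3 chain genes Cd3d, Cd3e and Cd3g, defining T cell genes, were named after their values were seen. They were above the array medians on DKO 1 and DKO 2, with Cd3d at 155 and 295, Cd3e at 63.6 and 102 and Cd3g at 125 and 216. On the other arrays they were below the median, apart from Cd3e on WT 2 (124). Cd247 and Cd4, also on this list, were below the medians on DKO 1 and DKO 2, at 52.1 and 51.8 and at 10.1 and 9.58. Neither passed the filter. Cd8a differed by -0.45 with all arrays and -0.39 without WT 2, though its tested probe sets reached 1.42 and 1.14. With all arrays mast cell and basophil markers had 5 of 5 higher (sums 272 to 2162 and 320 to 1204) and dendritic cell markers 5 of 6 (1090 to 1690 and 587 to 1271). In the same fit plasma cell markers had 6 of 7 higher (30811 to 55950 and 26933 to 40153), and megakaryocyte and erythroid markers 3 of 6 (635 to 4569 and 2533 to 5616). Without WT 2 the counts were 5 of 5, 4 of 6, 4 of 7 and 3 of 6 in this order, and 8 of 11 for T and NK cell markers. Of all genes 70.2% were higher with all arrays and 51.7% without WT 2. The 1 marker called on these lists was Igha, the heavy chain constant gene of IgA, at 19431, 14896 and 6180 across DKO 1 to 3, against 30.7, 162 and 44.9 across WT 1 to 3 (log2 difference 7.56, limma adjusted p = 0.043). Jchain, which joins IgA and IgM chains, read 6321, 2655 and 1907 across DKO 1 to 3, against 314, 550 and 82.3 across WT 1 to 3 (limma adjusted p = 0.428). Both were higher on all 3 knockout arrays, DKO 3 included, and were named after their values were seen. The other plasma cell markers lay on both sides of 0. Xbp1 and Mzb1, those of highest mean signal, differed by 0.0039 and 0.49 with all arrays and by 0.084 and 0.27 without WT 2. Sdc1 differed by -1.24 with all arrays and -0.91 without WT 2, Irf4 by 0.73 and -0.52, and Prdm1 by 0.067 and -0.30.

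**Figure D5:**
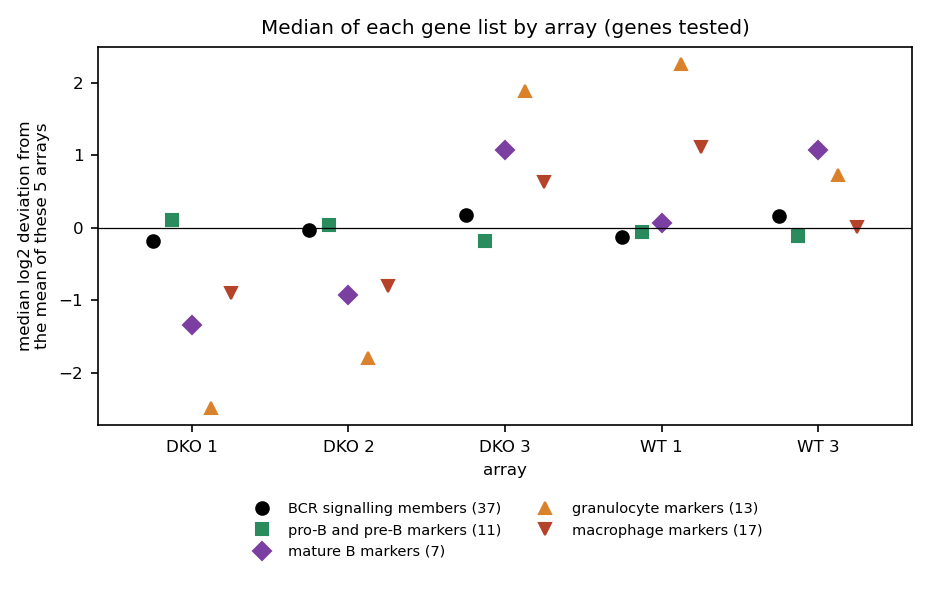
Median log2 deviation from the mean of the 5 arrays other than WT 2, for the members and 4 marker lists (number of genes tested in brackets). Granulocyte and macrophage markers are low on DKO 1 and DKO 2 and mature B cell markers are low on the same arrays, while the members stay between -0.18 and 0.18.

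Other genes of the pathway, from a list of 69 of which 52 had a probe set and 50 passed the filter, gave no call in either fit. Of all tested probe sets 0.00740% were called with all arrays and 0.0259% without WT 2. With all arrays 43 of 50 had the higher mean in DKO (median 0.63), as did 70.2% of all genes (median 0.30). Without WT 2 the count was 34 of 50 (median 0.12), where 51.7% of all genes were higher (median 0.01). On the higher side the smallest p belonged to Pik3cg and Inppl1. Pik3cg, the p110 gamma catalytic subunit, read 1434, 1265 and 522 across DKO 1 to 3, against 340, 249 and 389 across WT 1 to 3, a difference of 1.88 and 1.38 without WT 2 (limma adjusted p = 0.822 and 0.948). Inppl1, which encodes the phosphatase SHIP-2, read 2476, 4421 and 421 across DKO 1 to 3, against 514, 275 and 324 across WT 1 to 3, a difference of 2.49 and 1.98 without WT 2. On the lower side they belonged to Cd22, an inhibitory receptor of B cells (-1.62, and -1.63 without WT 2), and Bcl6, a transcriptional repressor (-0.35, and -0.34 without WT 2). A second tested Cd22 probe set had the opposite sign with all arrays (0.77), and gave -1.13 without WT 2. DKO 3 lay with the WT arrays in Cd22 and Inppl1 and closer to them in Pik3cg. Lyn, a SRC-family kinase of this pathway, is not analysed here.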

How the data were processed

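Total RNA of cultured bone marrow cells was biotin-labelled and hybridised to 6 oligonucleotide arrays, 3 per genotype. The deposited values are linear intensity, 1 per probe set and array, made by the authors with MAS5 per the submitters' processing notes, with no version given. Without the highest and lowest 2% of values each array averaged 500.0, so the arrays had been scaled alike. No detection calls were used. Precision is limited by there being 6 arrays.

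Of 45101 probe sets 64 controls were set aside, and 34945 of the other 45037 had 1 gene symbol, 932 several and 9160 none in the platform annotation. Values were transformed as log2(intensity + 16), which understates differences of dim genes. Each array was centred on its median, since the medians differed by 1.13 (log2), and the 27022 probe sets whose mean exceeded percentile 40 entered the test. Group was the single term of a linear model in limma 3.58.1 (R 4.3.3), with moderated variances following the mean, two-sided, Benjamini-Hochberg adjustment over all tested probe sets and a threshold of 0.05. The fit without WT 2 kept the same probe sets. The script was tested on simulated data. The noise in them was set from the 5 arrays other than WT 2, so the test does not cover a fit with an array like WT 2. Tables and figures were made with Python 3.11.15, pandas 2.3.3, numpy 2.4.6 and matplotlib 3.10.9.

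The members, the pathway and marker lists and the alternatives were chosen with earlier results of these data known. All members were named, with the 2 pathway genes of smallest p on each side and the 2 markers of highest mean signal per list, of which those set beside a member's result are printed. Alternatives were quantile normalization, no centring, a pseudocount of 1 or 64, a filter at percentile 60 or none, each array left out, the replicate number as a block, array weights (gene by gene, after the default method stopped before converging), WT 2 left out with quantile normalization, and the median over a gene's probe sets.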

Additional observations from a re-analysis of the deposited data

How the results depend on the processing

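Among the fits that gave an adjusted p, no member passed except Blnk and Fyn with array weights, where 2 members and 922 probe sets were called and 18 members had the higher mean in DKO. Over all probe sets the calls were 0 with quantile normalization, no centring, pseudocount 1 or the replicate block, 1 with the filter at percentile 60, 5 without WT 2 under quantile normalization, where 15 members were higher, and 0 to 7 with 1 array left out, 7 of them without WT 2. The count of higher members was 15 to 33 with 1 array left out, the lowest without WT 2, and 24 to 31 in the other settings. The median of the members ran from -0.06 without WT 2 to 0.90 without WT 3. Most members have no settled sign. It turned under quantile normalization (Blk -0.058, Grb2 -0.076, Pik3ap1 -0.27, Plcg2 -0.068, Vav3 -0.28, Cblb -0.093), without centring (Pik3ap1 -0.26, Plcg2 -0.19, Vav3 -0.10), with pseudocount 1 (Ptprc 0.012) or 64 (Pik3ap1 -0.042), with the median of a gene's probe sets (Lat2 0.046, Pik3cd 0.42, Rasgrp3 -0.088), with array weights (Blk -0.24, Grb2 -0.33, Plcg2 -0.11, Pik3cd 0.18, Pik3r1 -0.18, Vav3 -0.41, Sos1 -0.089, Nras -0.37, Prkcb -0.0026, Bcl10 -0.29, Map2k1 -0.052, Ptpn6 -1.03, Cbl -0.46, Cblb -0.26), and without WT 2 under quantile normalization (Btk -0.046, Blk -0.34, Grb2 -0.23, Plcg2 -0.072, Pik3cd 0.070, Pik3r1 -0.15, Inpp5d -0.068, Vav3 -0.33, Rac2 -0.034, Sos1 -0.053, Nras -0.37, Prkcb -0.0058, Bcl10 -0.19, Map2k1 -0.15, Ptpn6 -0.83, Cbl -0.29, Cblb -0.30). With 1 array left out the ranges of members that turned were Ptprc -0.17 to 0.041, Syk -0.51 to 0.13, Btk -0.064 to 1.61, Blk -0.36 to 0.72, Grb2 -0.25 to 0.80, Lat2 -1.81 to 0.86, Pik3ap1 -0.20 to 0.45, Plcg2 -0.088 to 0.31, Pik3cd -0.67 to 0.087, Pik3r1 -0.17 to 1.23, Inpp5d -0.081 to 1.69, Vav3 -0.34 to 0.67, Rac2 -0.046 to 2.85, Rasgrp1 -1.94 to 0.082, Sos1 -0.065 to 0.86, Nras -0.39 to 1.62, Prkcb -0.013 to 0.81, Bcl10 -0.21 to 1.07, Map2k1 -0.18 to 1.17, Ptpn6 -0.85 to 2.21, Cbl -0.31 to 1.41, Cblb -0.31 to 0.87. The median over probe sets was a value with no test. The cause of these turns was not tested.

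The replicate numbers were not taken as pairing the arrays. Deviations of same-numbered arrays from their group means correlated at -0.15, -0.0019 and 0.33 over the tested probe sets, and DKO 1 correlated best with WT 2 (0.32). With the replicate number as a block (the replicate block) 0 members and 0 probe sets were called and 30 members were higher.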
